A study of Homo sapiens with 8 samples.

Results

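U14 is a box C/D small nucleolar RNA (snoRNA) that human cells carry in several copies, SNORD14A to SNORD14E. SNORD14A and SNORD14B lie in introns of RPS13, which encodes a protein of the small ribosomal subunit. SNORD14C, SNORD14D and SNORD14E lie in introns of HSPA8, which encodes the constitutive HSC70 chaperone. The peaks described here are those annotated to any of these 5 copies in 2 lists of RNA regions bound by NOP2/NSUN1, an RNA 5-methylcytosine methyltransferase of the nucleolus. They number 12 of the 538 listed peaks, 6 of 251 in the WT list and 6 of 287 in the C459A list.

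The lists come from miCLIP-sequencing of HEK293T, an established line from human embryonic kidney, which was given a plasmid coding for NOP2/NSUN1 with a FLAG tag and grown on for 40 h. The protein was WT or C459A. The C459A mutant lacks the cysteine that frees the methylated RNA, so it stays covalently joined to its substrates, and no UV light was used in either arm. Each construct had 2 biological replicates of the FLAG immunoprecipitate (IP) and 2 of the size-matched input (SMInput), RNA from the same membrane region before immunoprecipitation, 8 libraries in all. NOP2/NSUN1 was expressed from a plasmid in both arms, and no library of cells without the tagged protein was sequenced, so SMInput is the only background. Each listed value combines both replicates of a construct, so no spread between replicates, no read count and no depth can be given, and no test between copies or between lists was made.

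Box C/D snoRNAs carry a box C near their 5′ end and a box D near their 3′ end, which bring in the core proteins 15.5K, NOP56, NOP58 and fibrillarin. Most of them pair with rRNA through the bases just before a D box and direct fibrillarin to methylate the ribose of the fifth base from that box. U14 has 2 functions: it guides methylation of 18S rRNA, and, as shown in yeast, it pairs with 18S at a further place and is needed for the pre-rRNA cleavages that free 18S. In vertebrates, U14 is trimmed out of the introns of its host genes after splicing.

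The sequences of the 5 copies are given to show what the copies share and where they differ. They are the GENCODE release 44 transcripts, all identical to the minus strand of chromosome 11 of hg38, written 5′ to 3′ as DNA. Capitals mark box C (TGATGA), the stretches that pair with 18S without G-U pairs, and box D (CTGA).
SNORD14A: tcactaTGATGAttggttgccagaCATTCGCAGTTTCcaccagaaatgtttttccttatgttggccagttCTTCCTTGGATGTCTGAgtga
SNORD14B: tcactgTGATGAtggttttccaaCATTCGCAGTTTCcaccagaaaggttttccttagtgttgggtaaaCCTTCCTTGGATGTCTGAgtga
SNORD14C: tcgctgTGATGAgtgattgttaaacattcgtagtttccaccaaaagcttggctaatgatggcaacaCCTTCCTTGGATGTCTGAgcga
SNORD14D: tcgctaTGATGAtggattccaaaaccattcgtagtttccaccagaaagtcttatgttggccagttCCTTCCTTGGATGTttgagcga
SNORD14E: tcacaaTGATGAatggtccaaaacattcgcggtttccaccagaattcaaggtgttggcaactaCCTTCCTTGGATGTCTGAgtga

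Box C began at base 7 in all 5 copies. Box D was spelled CTGA in SNORD14A, SNORD14B, SNORD14C and SNORD14E, and SNORD14D had TTGA in its place. Of the 313 SNORD transcripts of GENCODE, 62.0% held TGATGA within their first 15 bases and 83.1% held CTGA within their last 12 bases, on the strand of the RNA. The copies were related but far from identical. Across their 10 pairs the identity after alignment had a median of 78.0%, from 75.6% between SNORD14C and SNORD14E to 85.9% between SNORD14A and SNORD14B. The 3 pairs within HSPA8 had a median of 78.7%, and the 6 pairs across the host genes had a median of 77.3%, with ranges that overlapped.

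Reads from identical stretches cannot be assigned to 1 copy, and the shortest reads kept were 18 bases. Of the windows of 18 bases in each copy, the share also found in another copy was 13.5% for SNORD14A, 16.4% for SNORD14B, 5.63% for SNORD14C, 1.43% for SNORD14D and 8.82% for SNORD14E. A further U14 locus on chromosome 2, SNORD14, raised the share to 26.0% for SNORD14B when it was counted too and left the other 4 shares as they were. How reads from them were divided in the deposited lists was not tested.

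The RPS13 copies lie in longer introns than the HSPA8 copies. SNORD14A spans chr11:17074654-17074744 in intron 5 of the 6-exon RPS13 transcript, 352 bases from the exon upstream and 187 from the exon downstream. SNORD14B spans chr11:17075779-17075868 in intron 3 of RPS13, which is 1544 bases long. SNORD14C spans chr11:123059335-123059422 in intron 5 of the 9-exon HSPA8 transcript, and only 50 and 73 bases separate it from the exons of a 211-base intron. SNORD14D (chr11:123058909-123058995) lies in intron 6 of HSPA8, which is 228 bases long, with 63 and 78 bases on its sides. SNORD14E (chr11:123058077-123058161) lies in intron 8, 90 bases from the exon upstream and 157 from the exon downstream. All are on the minus strand with their hosts, in hg38 coordinates.

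A U14 peak was listed for 4 of the 5 copies with WT and for 4 of the 5 with C459A, where 16.5% and 20.9% of 297 SNORD symbols had a listed peak. Without the SNORD115 and SNORD116 symbols these shares were 22.6% and 28.6%. The same 4 copies were listed for both constructs. SNORD14D had no listed peak for either construct, on its transcript or on the chromosome. Since the lists keep only peaks with an adjusted p under 0.05 and at least a 2-fold enrichment, its absence says only that it did not pass these thresholds. It does not say whether SNORD14D was present in the cells. No peak in either list was annotated to the host genes HSPA8 or RPS13 themselves.

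SNORD14B, from RPS13, was the most enriched copy on the transcript references. Its log2 fold change in IP against SMInput was 5.10 with WT (34.3-fold, the authors' adjusted p = 4.02e-14) and 5.24 with C459A (37.7-fold, the authors' adjusted p = 3.03e-20). By this measure it was number 12 of the 57 SNORD peaks with WT and number 9 of 70 with C459A. By adjusted p it was number 3 and number 7.

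SNORD14A, from the same host gene, was the least enriched copy that was listed. Its log2 fold change was 2.75 with WT (6.74-fold, the authors' adjusted p = 0.00113) and 2.08 with C459A (4.22-fold, the authors' adjusted p = 0.0171). It ranked 49 of 57 and 66 of 70 among the SNORD peaks, near the lower end of both lists.

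The listed HSPA8 copies lay between the RPS13 copies. On its transcript, SNORD14C had a log2 fold change of 3.39 with WT (10.5-fold, the authors' adjusted p = 9.02e-08) and 4.27 with C459A (19.3-fold, the authors' adjusted p = 1.26e-23). SNORD14E had 3.95 with WT (15.5-fold, the authors' adjusted p = 3.61e-12) and 4.33 with C459A (20.1-fold, the authors' adjusted p = 2.35e-21). Both were in the middle of the SNORD peaks by fold change, at ranks 37 and 30 of 57 with WT and 25 and 24 of 70 with C459A. Both were near the top by adjusted p, at ranks 8 and 5 with WT and 4 and 6 with C459A.

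**Figure D1:**
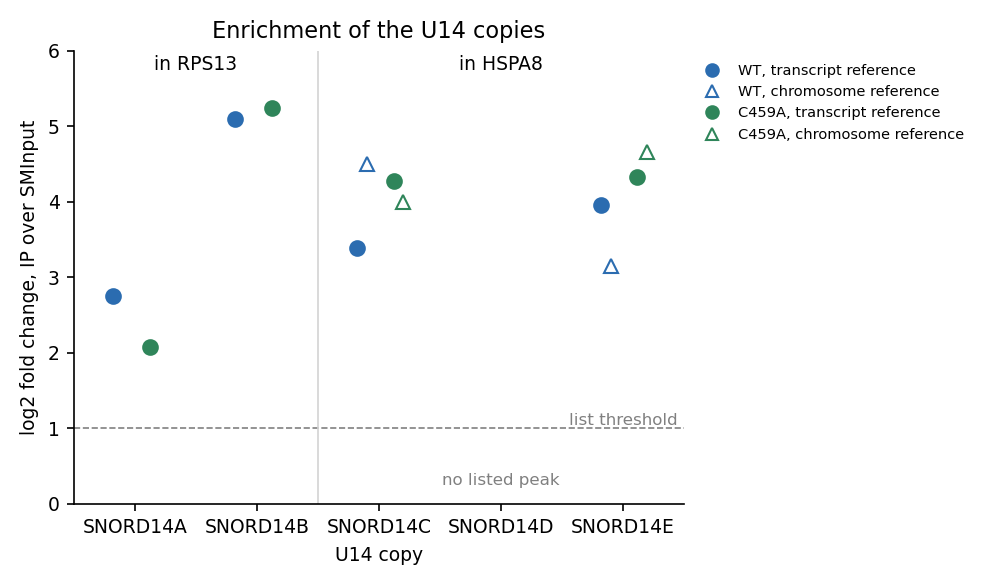
The enrichment of each U14 peak (log2, IP against SMInput) is plotted by copy and host gene, for WT (blue) and C459A (green), on transcript references (filled circles) and on the chromosome (open triangles). SNORD14B is highest at 5.10 and 5.24, SNORD14A lowest at 2.75 and 2.08, SNORD14C and SNORD14E lie between, and SNORD14D has no listed peak above the list's threshold of a 2-fold change (dashed line).

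Copies from HSPA8 and RPS13 were then set side by side. On the transcript references, the host gene did not separate the copies by enrichment. With WT, the median log2 fold change of the transcripts was 3.67 for HSPA8 and 3.93 for RPS13, and with C459A it was 4.30 and 3.66, so the order of the medians was not the same in both lists. Within RPS13, SNORD14B exceeded SNORD14A 5.09-fold with WT and 8.93-fold with C459A. Within HSPA8, the higher of SNORD14C and SNORD14E exceeded the other 1.47-fold and 1.04-fold. The spread within RPS13 was thus wider than the difference between the host medians in both lists. With 2 listed copies per host gene, this is a description only, and the C459A difference of 0.64 between the host medians became -0.94 once peaks with an adjusted p of 0.01 or more were left out, which removes SNORD14A.

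The SNORD14C and SNORD14E peaks were also listed on chromosome 11, where a peak is not bounded by the ends of the snoRNA. SNORD14C had a peak at chr11:123059322-123059422 with WT (log2 fold change 4.50, the authors' adjusted p = 0.0267). With C459A its peak was at chr11:123059330-123059422 (4.00, the authors' adjusted p = 0.00114). SNORD14E had a peak at chr11:123058071-123058162 with WT (3.15, the authors' adjusted p = 0.0203). With C459A its peak was at chr11:123058066-123058172 (4.65, the authors' adjusted p = 1.76e-05). All these chromosome peaks had larger adjusted p-values than the transcript peak of the same copy and construct. Neither RPS13 copy had a chromosome peak in either list.

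The peaks covered all or nearly all of the annotated snoRNA. On the transcript references, whose ends a peak cannot pass, they ran from the first to the last base in 7 of the 8 cases. The C459A peak of SNORD14A ended 1 base short, at 98.9% of the RNA. On the chromosome, the SNORD14C peaks began at the 5′ end of the snoRNA and passed its 3′ end by 13 bases with WT and 5 with C459A. The SNORD14E peaks passed the 5′ end by 1 base and the 3′ end by 6 with WT, and both ends by 11 bases with C459A. No U14 peak reached an exon of HSPA8. Peak edges alone do not show whether bound RNA was the mature snoRNA or a precursor with a few bases left.

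**Figure D2:**
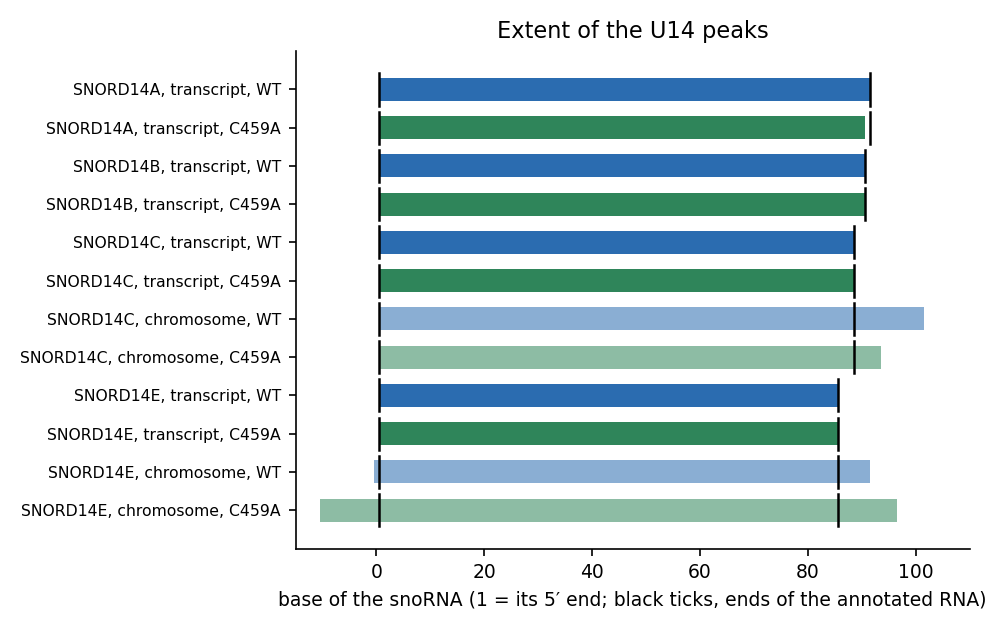
Each bar is a U14 peak, drawn in bases from the 5′ end of the annotated snoRNA, with WT in blue and C459A in green, and chromosome peaks in lighter shades. Black ticks mark the ends of the snoRNA, which transcript peaks cannot pass. The chromosome peaks pass these ends by 13 bases at most.

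Having both kinds of peak was uncommon. In each list 8 SNORD symbols had a transcript peak and a chromosome peak, and 5 had both kinds in both lists. These were SNORD3A (U3), SNORD118 (U8), SNORD13 (U13), SNORD14C and SNORD14E. The 2 measurements of a copy did not differ in a constant direction. For SNORD14C the chromosome value minus the transcript value was 1.10 on the log2 scale with WT and -0.27 with C459A. For SNORD14E it was -0.80 and 0.33. For SNORD3A, in contrast, it was 1.56 and 1.58. Differences of up to 1.10 between 2 values for a single copy and construct give a sense of how far U14 values vary with the reference used.

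The next question was whether U14 enrichment depended on the covalent trap of C459A. All 6 U14 peaks of each list overlapped the matching peak of the other list by at least 1 base, and also by at least 50% of both peaks, and 5 of 6 did so by at least 90%. Of the other SNORD peaks, 46 of 51 with WT (90.2%) and 46 of 64 with C459A (71.9%) overlapped one of the other list by at least 1 base. At 90% of both peaks, 41 of 51 (80.4%) and 41 of 64 (64.1%) did so, beside 83.3% of the U14 peaks of each list. On the transcripts the C459A value minus the WT value was 0.14 on the log2 scale for SNORD14B, 0.38 for SNORD14E, 0.88 for SNORD14C and -0.68 for SNORD14A. Thus 3 copies had the higher value with C459A and 1 with WT. On the chromosome it was 1.50 for SNORD14E, the fourth largest in size of 52 matched SNORD pairs, and -0.50 for SNORD14C. SNORD14C therefore had the higher transcript value with C459A but the higher chromosome value with WT, and its direction depended on the reference.

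Over the 6 matched U14 pairs the median difference was 0.26, with 4 higher and 2 lower with C459A. Over the other 46 matched SNORD pairs the median was 0.07, with 24 higher and 22 lower, and single differences ran from -1.81 to 5.33. All U14 differences were inside that range. In size, without their sign, the U14 differences had a median of 0.59 and the others 0.39. The adjusted p was smaller with C459A in 5 of 6 U14 pairs (83.3%) and in 34 of 46 other SNORD pairs (73.9%). The lists pool their replicates, and whether the constructs differ for any U14 copy was not tested.

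**Figure D3:**
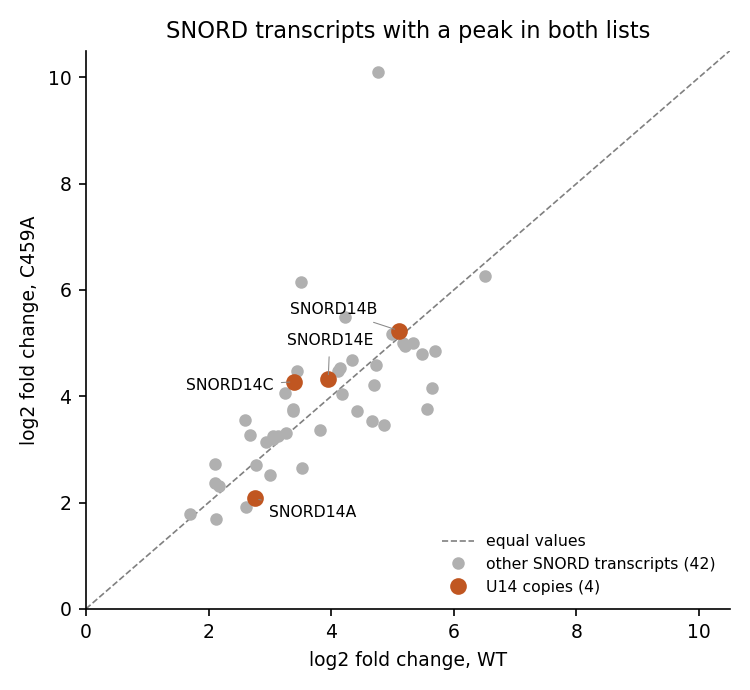
Each point is a SNORD transcript with a peak in both lists, with its enrichment (log2, IP against SMInput) for WT on the horizontal axis and for C459A on the vertical axis. The 4 listed U14 copies (orange) lie among the 42 other SNORD transcripts (grey), with SNORD14A below the line of equal values (difference -0.68) and SNORD14C (0.88), SNORD14E (0.38) and SNORD14B (0.14) above it.

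As a group the U14 peaks were ordinary in size among the box C/D snoRNAs. Their median log2 fold change was 3.67 with WT (range 2.75 to 5.10) and 4.30 with C459A (2.08 to 5.24). The other SNORD peaks had medians of 4.11 (51 peaks) and 3.72 (64 peaks). The medians of all listed peaks were 3.44 and 3.63.

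The snoRNAs of pre-rRNA processing were compared on transcript references. U3, which pairs with the 5′ external transcribed spacer and 18S, had peaks for 5 of the 12 symbols sought, 9 of which are in the gene name table. Its medians were 4.11 with WT and 4.16 with C459A. U14 had 3.67 and 4.30, below the U3 median with WT and above it with C459A. The U3 median fell on SNORD3B-1 with WT and on SNORD3E with C459A, so it does not follow 1 member. With C459A, SNORD3A (4.67) and SNORD3B-1 (4.47) exceeded the U14 median, and SNORD3E (4.16), SNORD3C (3.56) and SNORD3D (1.79) did not. U8 (SNORD118), which acts in the maturation of 5.8S and 28S, had 3.24 and 4.06. U13 (SNORD13), known for its part in the acetylation of 18S, had 3.26 and 3.32, and U22 (SNORD22), which is needed for 18S in frogs, had the lowest values, 2.10 and 2.72. U17 (SNORA73A and SNORA73B), the box H/ACA member of the group, had no listed peak. These transcript values, medians for U3 and U14, were higher with C459A than with WT in all 5 families with a peak, while single members such as SNORD14A and SNORD3E (5.64 with WT and 4.16 with C459A) were lower, and 28 of all 52 matched SNORD pairs were higher. The order of the families depended on the references counted. With chromosome peaks included, the WT medians were 4.22 for U3, 3.77 for U8, 3.73 for U13 and 3.67 for U14, and with C459A they were 4.31, 4.08, 3.99 and 4.30.

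The U14 copies resembled different snoRNAs. Likeness was measured as the Euclidean distance between the pairs of log2 fold changes (WT, C459A), over 42 other SNORD transcripts listed for both constructs. The nearest to SNORD14B was SNORD61 (distance 0.12, values 4.99 and 5.17), followed by SNORD4B and SNORD36B. The nearest to SNORD14E was SNORD3B-1, a U3 copy (0.21, values 4.11 and 4.47), followed by SNORD58A and SNORD70B. For SNORD14C the nearest was SNORD21 (0.21, values 3.44 and 4.47), followed by SNORD118 and SNORD56. For SNORD14A it was SNORD45A (0.21, values 2.60 and 1.92), followed by SNORD35A and SNORD32A. U14 copies were compared with other snoRNAs only, not with each other.

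The places where U14 can pair with 18S were located to set them beside the pre-rRNA peaks. The 2 stretches of 18S with the longest pairing without G-U pairs are printed from RNA18SN1 (chr21:8436876-8438744, plus strand, hg38), with 10 bases on each side in lower case and the paired bases in capitals. Positions are counted from the first base of the 1869-base 18S.
18S bases 72 to 104: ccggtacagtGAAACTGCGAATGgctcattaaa
18S bases 448 to 481: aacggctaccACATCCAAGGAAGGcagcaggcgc

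The stretch of 18S bases 458 to 471 pairs with the bases just before box D of every copy. SNORD14B, SNORD14C, SNORD14D and SNORD14E matched all 14 bases, and SNORD14A matched 13, or 14 with G-U pairs allowed. In the 4 copies with a CTGA box D, the fifth base before the box lay opposite 18S base 462, a C that U14 is known to direct for ribose methylation. Of the 313 SNORD transcripts, 1.60% matched all 14 bases. These 5 transcripts were 4 of the U14 copies and SNORD14 on chromosome 2. Both stretches were chosen for their pairing with U14, so the share that matches them does not measure how unusual such pairing is. A run of at least 13 bases paired with any part of 18S, without G-U pairs, was found in 22 of the 313 (7.03%). All 5 U14 copies were among them.

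The stretch of 18S bases 82 to 94 divided the copies by host gene. The RPS13 copies SNORD14A and SNORD14B matched all 13 bases, and were the only SNORD transcripts to do so (0.639% of 313, for a stretch chosen by its pairing with U14). The HSPA8 copies SNORD14C, SNORD14D and SNORD14E matched this stretch only with G-U pairs allowed, over 13, 14 and 13 bases. This division by host gene had no counterpart in the enrichment on transcript references, where SNORD14A and SNORD14B were the lowest and the highest listed copies. On the chromosome, only the HSPA8 copies SNORD14C and SNORD14E had a listed peak. A match of letters is a description and does not show that the RNAs pair in these cells.

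On the 45S pre-rRNA references, peaks on RNA45SN1 and RNA45SN2 covered the first of these stretches, and no peak covered the second. There were 31 peaks on all the 45S references with WT and 26 with C459A. Of these, 2 in each list reached into 18S, and all of them covered the 13 bases of 82 to 94. On RNA45SN1 the WT peak held the last 349 bases before 18S and ended at 18S base 94 (log2 fold change 4.06, the authors' adjusted p = 2.57e-18). The C459A peak held the last 354 bases before it and ended at base 104 (3.42, the authors' adjusted p = 2.49e-31).

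On RNA45SN2 the WT peak ended at 18S base 155 (3.27, the authors' adjusted p = 3.54e-12). The C459A peak ended at base 145 (2.55, the authors' adjusted p = 2.08e-13). These peaks started in the 5′ external transcribed spacer and span 355 to 458 bases, so they cannot place a contact at the U14 stretch itself. No peak of either list overlapped 18S bases 458 to 471, on the 45S references, on chromosome 21 or on the unlocalised hg38 sequence that also carries 45S. This was not particular to that stretch. On the 45S references, no listed peak covered any 18S base past 155 with WT or past 145 with C459A. The 45S copies share nearly all of their 18S, and how reads were divided among them was not tested.

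**Figure D4:**
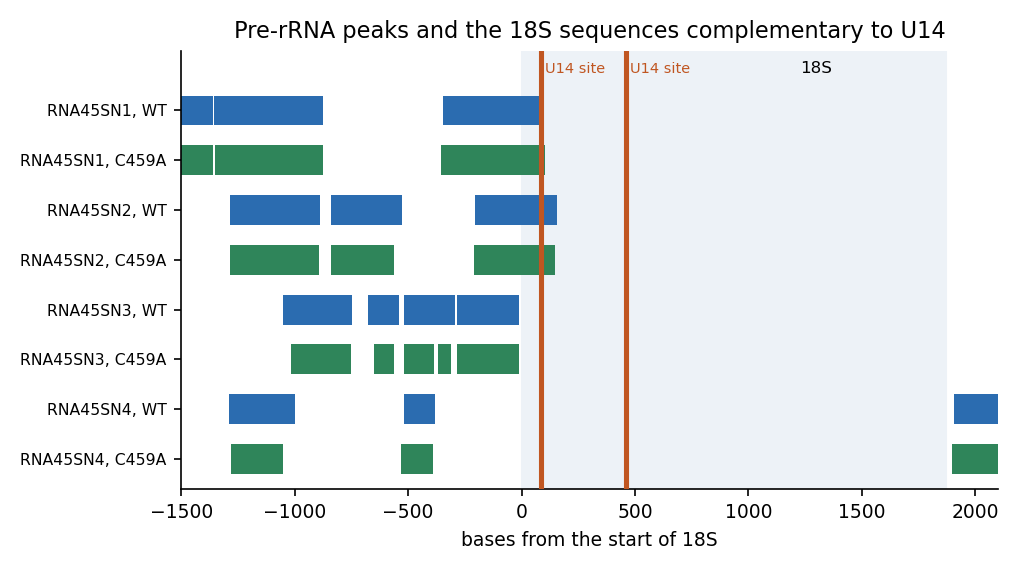
Listed peaks on 4 copies of the 45S pre-rRNA are drawn against the distance in bases from the start of 18S (shaded), WT in blue and C459A in green. Orange lines mark 18S bases 82 to 94 and 458 to 471. On RNA45SN1 and RNA45SN2 a peak crosses the first line with both constructs, and no peak reaches the second.

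By qPCR, the paper reports that tagged WT and C459A both enriched box C/D snoRNAs relative to mock-transfected cells, but not U6 or SNORA7A. Its sequencing identified no cross-linked sites on snoRNAs. The study also measured SNORD14C, with other box C/D snoRNAs, by qPCR in RNA precipitated with core proteins such as NOP56. The paper reports that depletion of NOP2/NSUN1 lowered the snoRNAs bound to these proteins. It also reports that either WT or a catalytically inactive mutant, when re-expressed, reversed this decrease. That mutant was not C459A but had a change at the other catalytic cysteine. These depletion and re-expression experiments on bound snoRNAs used a different cell line from the HEK293T cells of the lists. Those measurements were not re-examined here. The SNORD14C primers are shown since they bear on which copy such an assay reads.
SNORD14C forward primer: tcgctgtgatgagtgattgt
SNORD14C reverse primer: tccaaggaaggtgttgccat

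The forward primer equals bases 1 to 20 of SNORD14C, and the reverse primer is the complement of bases 58 to 77, which include part of the 18S-pairing stretch. Neither had a mismatch to SNORD14C. Placed at the corresponding bases of SNORD14A, SNORD14B, SNORD14D and SNORD14E, the forward primer had 5, 6, 5 and 8 mismatches and the reverse primer 5, 4, 6 and 6. Among the 5 copies, only SNORD14C matched both primers without a mismatch.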

How the data were processed

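The authors trimmed reads with cutadapt, moved UMIs to read names with fastp, aligned them to repetitive element families and hg38, and called peaks with Peakachu. Reads under 18 bases were discarded. The sources used here do not name tool versions. The deposited values are log2 fold changes (IP against SMInput), which the authors' caller gave with both replicates in 1 value, and the −log10 of the adjusted p-value, which was turned back here into an adjusted p. The deposited lists hold no counts, so depth is unknown.

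U14 peaks were taken by the annotation of each peak. The named snoRNAs are all U14 copies, a list of snoRNAs of pre-rRNA processing, and the 3 nearest patterns of each copy. The members and lists were chosen with earlier results of these data known. The p-values come from Peakachu, and no test was made here. Intron positions and sequences come from GENCODE release 44 and hg38, and the ends of 18S from RefSeq. Copies were aligned globally (match 1, mismatch -1, gap -2), and pairing runs of at least 10 bases were sought. The 297 SNORD symbols are those of the gene name table together with any other SNORD symbol that had a listed peak. The search and alignment steps were tested on simulated data. Alternatives were stricter thresholds, either kind of reference alone, larger overlaps, other position conventions and G-U pairs. Computation used python 3.11.15, numpy 2.4.6, pandas 2.3.3, pysam 0.24.0, matplotlib 3.10.9 and samtools 1.23.1.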

Additional observations from a re-analysis of the deposited data

How the results depend on the processing

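Values on the log2 scale were compared by the fold change they stand for. Of 44 alternative values, 41 kept their direction and moved by at most 1.5 times. The median C459A minus WT difference over U14 peaks, among these, was 0.26 on the log2 scale, 0.50 on chromosomes only and 0.63 as a difference of medians. On chromosomes only, 2 copies had a peak with WT and 2 with C459A, in place of 4 and 4, by construction, since the RPS13 copies were listed on transcripts only. At an adjusted p under 0.01 the HSPA8 median minus the RPS13 median with C459A was -0.94 on the log2 scale in place of 0.64, since SNORD14A drops out and leaves 1 RPS13 copy. At that threshold 4 U14 peaks with WT and 5 with C459A remained listed, and at a fold change of at least 4 all 6 and 6 did. No paired analysis was possible because each listed value pools both replicates of a construct, and leaving out each replicate was not run for the same reason. Without counts, the precision of each fold change is unknown.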

Other observations

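The SNORD14 locus is annotated on chromosome 2 (chr2:24969388-24969477, hg38, minus strand, 90 bases). It is 91.1% identical to SNORD14B, more than any pair of the 5 copies, and had no listed peak in either list. RefSeq gives SNORD14E as 80 bases, from chr11:123058077-123058156, and GENCODE as 85 bases, and both transcript peaks of SNORD14E covered all 85. With G-U pairs allowed, the longest pairing of each of the 5 copies with 18S was a run of 15 bases at 18S bases 1503 to 1517.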
